A study of Mus musculus with 16 samples.

Results

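The 10 genes described here are the toll-like receptors Tlr1, Tlr2, Tlr3, Tlr4, Tlr6, Tlr7, Tlr9 and Tlr13, the co-receptor Cd14 and the adaptor Myd88. They were taken by symbol from a table of read counts for 55359 mouse genes, and all 10 symbols had a row. RNA was sequenced from tissue labelled periodontal ligament, the connective tissue that ties the tooth root to its bony socket. The series' title speaks of bone tissue. All animals were wild-type male C57BL/6J mice aged 9 weeks at the procedure. There were 4 groups of 4 libraries. In the ligature plus trauma group (LiTra), 1 upper left molar, the second, carried both a silk ligature and composite resin. The ligature group (Li) had only the silk thread tied around that tooth, a model of periodontitis. The trauma group (Tra) had only the resin built up on its chewing surface, a model of traumatic occlusion. Control mice (Co) had neither. How long the ligature or resin was in place is not given in the sources used here. The labels number the libraries and do not say whether each came from 1 mouse, so the p-values cover only the variation from library to library, part of which may be technical.

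Toll-like receptors are membrane proteins that bind molecules of microbes or of damaged cells and pass the signal on through a cytoplasmic TIR domain. Tlr1, Tlr2, Tlr4 and Tlr6 sit at the cell surface, where Tlr2 pairs with Tlr1 or Tlr6 to bind bacterial lipopeptides and Tlr4 binds lipopolysaccharide handed over by Cd14. Tlr3, Tlr7, Tlr9 and Tlr13 sit in endosomes and bind nucleic acids. Myd88 carries the signal of every one of these receptors except Tlr3, whose adaptor is Ticam1, towards NF-kappaB and inflammatory cytokines. In the periodontium these receptors are known as sensors of plaque bacteria at the gum margin, and a ligature is used because it retains plaque.

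Reads of Tlr1 and Tlr6 cannot always be told apart. The genes are neighbours on chromosome 5, and their coding sequences, of 2388 and 2421 bases in GENCODE M21 transcripts, share an identical stretch of 229 bases. It spans coding bases 1468 to 1696 of Tlr1 and 1507 to 1735 of Tlr6. Of all 50-base windows, 19.4% of those in Tlr1 and 19.1% of those in Tlr6 also occur in the other gene. Of all 100-base windows, 11.3% and 11.2% do. The longest identical run of Tlr1 with Tlr2 is 13 bases, and no 50-base window is shared. The stretch is shown because a read that falls inside it fits both genes, and the lines after it run across its end, with the first base that differs in capitals (coding bases 1677 to 1716 of Tlr1 and 1716 to 1755 of Tlr6, all on the coding strand, 5′ to 3′).
Shared stretch: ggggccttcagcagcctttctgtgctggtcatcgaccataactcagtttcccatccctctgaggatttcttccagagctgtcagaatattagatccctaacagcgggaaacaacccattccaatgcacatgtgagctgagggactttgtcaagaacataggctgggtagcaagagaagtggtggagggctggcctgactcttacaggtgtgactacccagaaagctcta
Tlr1: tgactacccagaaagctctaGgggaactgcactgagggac
Tlr6: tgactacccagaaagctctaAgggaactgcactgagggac

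Total counts per library ranged from 58458102 to 77468584. With such totals, counting error is small beside the variation between libraries for all of these genes except Tlr9. Levels are CPM, each gene's counts relative to its library's total after scaling by the trimmed mean of M-values. Fold changes and p-values come from edgeR's quasi-likelihood test across 20953 genes, and a gene was called at a Benjamini-Hochberg adjusted p under 0.05. Periodontal ligament fibroblast markers were present in every library, with a summed level of 15741 to 57395 CPM. The libraries Li 2, LiTra 2 and LiTra 3 had the lowest slopes of expression on length. Across genes, their log expression rose less steeply with the exon length of a gene (slope 0.641, 0.762 and 0.738) than in the other libraries (0.847 to 1.2). The next lowest slope, 0.847, was that of Tra 3, which was kept, so every library set aside had a ligature. Results that rest on Li 2, LiTra 2 and LiTra 3 are therefore also given without them.

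Cd14, the protein that passes lipopolysaccharide to Tlr4, rose with a ligature. In the edgeR fit of all 16 libraries without a covariate, it was the only one of the 9 genes with enough counts for a test that passed in any comparison. It had 178, 496, 444 and 161 CPM in LiTra libraries, 215, 308, 207 and 322 CPM in Li libraries, 94.5, 115, 42.9 and 137 CPM in Tra libraries and 66, 50, 34.5 and 35.5 CPM in Co libraries. Every library with a ligature lay above every library without one. The means were 319.8 ± 175 CPM in LiTra, 263 ± 60.4 CPM in Li, 97.4 ± 40.3 CPM in Tra and 46.5 ± 14.8 CPM in Co (SD, n = 4 each). Against Co, the fold change was 6.88 in LiTra (95% interval 3.71 to 12.8, edgeR adjusted p = 0.00128) and 5.66 in Li (3.07 to 10.4, adjusted p = 0.00178). In bulk tissue, more cells of a type and more RNA per cell cannot be told apart.

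**Figure D1:**
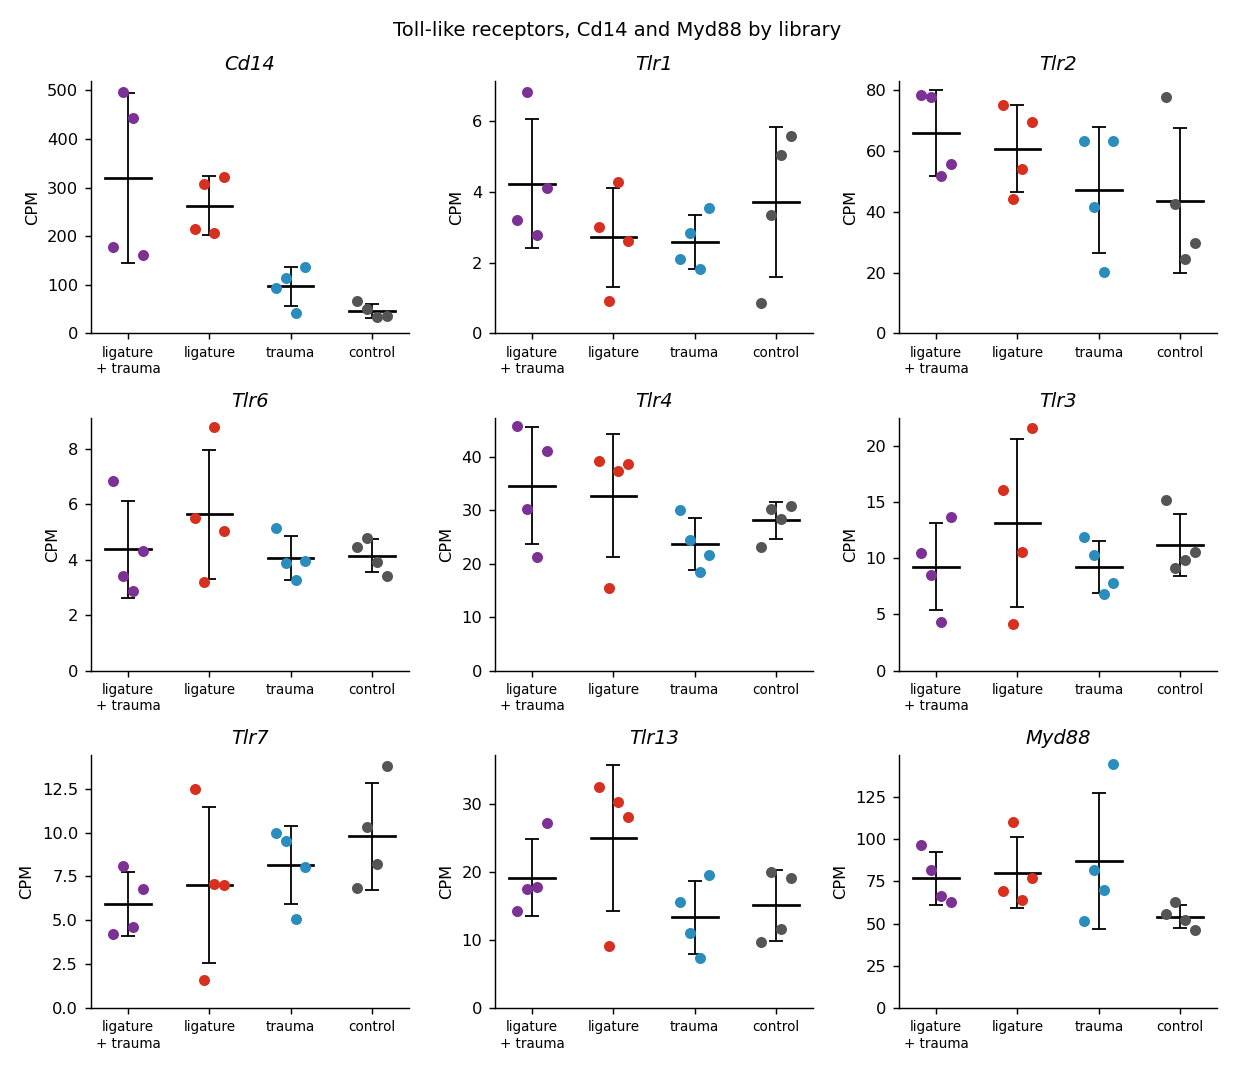
Level of each gene in CPM (vertical axis, from 0, scaled per panel) in the 4 libraries of each group, with points for libraries, a horizontal line for the mean and bars for 1 SD. Cd14 lies between 161 and 496 CPM in libraries with a ligature and between 34.5 and 137 CPM in those without, while the other genes overlap between libraries with and without a ligature; Tlr9, at 0 counts in 15 libraries, is not drawn.

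Averaged over both trauma states, Cd14 was 4.31-fold higher with a ligature (95% interval 2.81 to 6.6, edgeR adjusted p = 0.000136), with the ligature library higher in 64 of 64 pairings. Ranges did not overlap in that direction for 2.57% of all genes tested. The call held under each of 24 alternative settings, with a log2 fold change between 1.62 and 2.22. The lowest, 1.62 (adjusted p = 0.00132), was the fit of 13 libraries without Li 2, LiTra 2 and LiTra 3. In that fit the difference between LiTra and Co was 1.87 on the log2 scale (adjusted p = 0.0189), against 2.78 with all libraries.

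Trauma alone gave no call for Cd14. In Tra over Co its log2 fold change came to 1.07 ± 0.40 (SE, 95% interval 0.22 to 1.91, edgeR unadjusted p = 0.0165, adjusted p = 0.664), and 14 of 16 pairings of a Tra with a Co library were higher in Tra. Trauma added to a ligature gave 0.28 ± 0.39 in LiTra over Li (interval -0.55 to 1.12, adjusted p = 1). Without Li 2, LiTra 2 and LiTra 3 this value was -0.55, since the remaining LiTra libraries had 178 and 161 CPM and the remaining Li libraries 207 CPM or more. The interaction, the trauma effect with a ligature minus that without, was -0.78 ± 0.56 (interval -1.97 to 0.40, adjusted p = 1).

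A ligature added to trauma raised Cd14 3.28-fold in LiTra over Tra (95% interval 1.81 to 5.95, edgeR adjusted p = 0.0215), with no overlap between the groups. The call, but not the direction, depended on single libraries. The log2 fold change was 1.44 without LiTra 2 (adjusted p = 0.0722), 1.52 without LiTra 3 (adjusted p = 0.0672), 1.70 without Tra 1 (adjusted p = 0.0568) and 1.47 without Tra 3 (adjusted p = 0.0612). In the 13 libraries the log2 fold change was 0.82 (adjusted p = 0.311), against 1.72 with all 16, and in a fit of LiTra and Tra alone it was 1.71 (adjusted p = 0.0606).

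Cd14 is known from monocytes, macrophages and neutrophils, so markers of these cells are given beside it. Of 10 monocyte and macrophage markers, 1 rose and 3 fell in LiTra over Co, 2 rose and 3 fell in Li over Co, and none was called in Tra over Co. Of all genes tested, 12.5%, 10.7% and 0.00477% were called in these comparisons. Cd68 rose in LiTra and Li over Co (log2 2.19 and 2.50), and Csf1r in Li (1.46). Cd163 fell in both (-3.05 and -2.82), as did Mrc1 (-1.80 and -1.72) and Adgre1 (-1.21 and -1.13). A sum over the list therefore mixes markers that went in opposite directions. The summed level of the markers was 616 to 804 CPM in LiTra, 702 to 1123 CPM in Li, 287 to 640.2 CPM in Tra and 319 to 550.3 CPM in Co. Cd14 divided by that sum was -2.32 to -0.31 (log2) in LiTra, -2.38 to -1.33 in Li, -2.74 to -2.01 in Tra and -3.95 to -2.27 in Co. The ratio was thus lower in every Co library but 1 than in any library with a ligature.

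Of 10 mature neutrophil markers, 9 rose in LiTra over Co, 6 rose in Li over Co and none was called in Tra over Co, beside the same shares of all genes as above. All 10 nonetheless had a positive value in each comparison, with a median log2 fold change of 2.76 in LiTra over Co, 2.11 in Li over Co and 2.1 in Tra over Co. The sum of these markers was 723 to 3983 CPM in LiTra, 757 to 1591 CPM in Li, 646 to 4767 CPM in Tra and 210.4 to 744 CPM in Co. The highest neutrophil sum, 4767 CPM, was thus in Tra 2, a library without a ligature. S100a8 and S100a9 made up most of the sum in every library, with 2557 and 2018 CPM in Tra 2. The sum, and the ratio to it, therefore mainly follow S100a8 and S100a9 and not the whole list. Cd14 divided by the neutrophil sum was -3.09 to -2.02 (log2) in LiTra, -2.37 to -1.23 in Li, -6.33 to -2.77 in Tra and -3.89 to -1.89 in Co. None of these 20 markers was at 0 in all 4 libraries of any group.

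Other tissue markers moved with the ligature too. On the average over trauma states, 7 of 8 osteoclast markers and 6 of 7 endothelial markers rose, and all 8 oral epithelium markers fell, beside 21.5% of all genes called in either direction. The osteoclast sum was 10240.0 to 12941 CPM in LiTra, 10841 to 15413 CPM in Li, 1349 to 4146 CPM in Tra and 1091 to 4089 CPM in Co. Cd14 divided by the osteoclast sum was -6.33 to -4.37 (log2) in LiTra and -6.16 to -5.21 in Li. In Tra it was -4.97 to -4.45 and in Co -6.89 to -4.05. The ranges of LiTra and Li thus lay within that of Co. The epithelial sum was 702 to 2406 CPM in LiTra, 1352 to 2099.9 CPM in Li, 4135 to 26478 CPM in Tra and 1246 to 10473 CPM in Co. Of 9 periodontal ligament fibroblast markers, 1 rose and 3 fell, with a sum of 26975 to 42434 CPM in LiTra, 18068 to 37141 CPM in Li, 23317 to 57395 CPM in Tra and 15741 to 56662 CPM in Co. Of 8 skeletal muscle markers, 2 rose, with a sum of 11.1 to 92 CPM in LiTra, 7.18 to 753 CPM in Li, 5 to 7.79 CPM in Tra and 5.57 to 127 CPM in Co. The highest muscle sum was that of Li 2. The part of any of these cell types in the Cd14 values was not tested.

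Tlr4, the signalling receptor for lipopolysaccharide, was not called in any comparison in the edgeR fit of all 16 libraries without a covariate. It had 45.7, 30.2, 21.3 and 41 CPM in LiTra libraries, 39.2, 15.5, 37.4 and 38.7 CPM in Li libraries, 30, 24.5, 18.4 and 21.7 CPM in Tra libraries and 23.1, 30.3, 28.4 and 30.7 CPM in Co libraries. In Li, 3 libraries lay above every Co library and Li 2 lay below all of them. Averaged over trauma states, the ligature fold change of Tlr4 was 1.3 (95% interval 0.965 to 1.76, edgeR adjusted p = 0.193). Without Li 2 the log2 value was 0.49 instead of 0.38 and the call was made (adjusted p = 0.042). In the 13 libraries it was 0.68 (adjusted p = 0.00454), and with each library's slope on exon length as a covariate 0.61 (adjusted p = 0.00357). With that covariate Tlr4 was also called in LiTra over Co (0.84, adjusted p = 0.0214) and in LiTra over Tra (0.69, adjusted p = 0.0203). Tlr4 has the longest exon sequence of the 10 genes, 5.56 kb, and Cd14 the shortest, 1.73 kb.

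Tlr2, the shared partner in lipopeptide recognition, had 78.4, 77.6, 51.8 and 55.6 CPM in LiTra libraries, 75.2, 44.1, 53.9 and 69.6 CPM in Li libraries, 63.4, 41.5, 20.3 and 63.4 CPM in Tra libraries and 77.6, 42.6, 24.6 and 29.8 CPM in Co libraries. All 8 libraries with a ligature had 44.1 CPM or more, and the lowest Tra and Co libraries had 20.3 and 24.6 CPM. The groups overlapped, since Tra 1 and Tra 4, at 63.4 CPM each, and Co 1, at 77.6 CPM, lay above several libraries with a ligature. The average ligature fold change of Tlr2 was 1.39 (95% interval 0.948 to 2.05, edgeR adjusted p = 0.204). It was called in limma-voom with sample weights (log2 0.69, adjusted p = 0.0434).

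Tlr1 and Tlr6, the partners of Tlr2 for triacylated and diacylated lipopeptides, were low and overlapped between all groups. Tlr1 averaged 4.22 ± 1.82 CPM in LiTra, 2.71 ± 1.39 CPM in Li, 2.58 ± 0.775 CPM in Tra and 3.71 ± 2.12 CPM in Co. Tlr6 averaged 4.37 ± 1.75 CPM in LiTra, 5.64 ± 2.34 CPM in Li, 4.06 ± 0.784 CPM in Tra and 4.15 ± 0.598 CPM in Co (SD, n = 4 each). How reads of the shared stretch were counted is not given in the sources used here. The sum of the pair, which does not depend on how such reads were split but would change if they were dropped or counted for both genes, was 8.59 ± 2.12 CPM in LiTra, 8.34 ± 3.69 CPM in Li, 6.63 ± 1.07 CPM in Tra and 7.86 ± 1.73 CPM in Co. The average ligature fold change was 1.09 for Tlr1 (95% interval 0.632 to 1.89) and 1.21 for Tlr6 (0.851 to 1.72), with edgeR adjusted p-values of 0.838 and 0.439.

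Among the endosomal receptors, Tlr13, which in mice binds bacterial ribosomal RNA, had its 3 highest levels in Li libraries but was not called in the edgeR fit of all 16 libraries without a covariate. It had 14.2, 17.5, 17.8 and 27.3 CPM in LiTra libraries, 32.5, 9.13, 30.4 and 28.2 CPM in Li libraries, 15.6, 11, 7.27 and 19.6 CPM in Tra libraries and 9.69, 20.1, 11.6 and 19.1 CPM in Co libraries. As with Tlr4, 3 Li libraries lay above every Co library and Li 2 lay below them all. The average ligature fold change of Tlr13 was 1.54 (95% interval 1.03 to 2.31, edgeR unadjusted p = 0.0372, adjusted p = 0.116). It was called without Li 2 (log2 0.76, adjusted p = 0.0266), in the 13 libraries (0.84, adjusted p = 0.0498), with the length covariate (0.89, adjusted p = 0.0183) and in limma-voom (0.72, adjusted p = 0.0312). The value with all 16 libraries and no covariate in edgeR was 0.62. In Li over Co, Tlr13 was called in limma-voom (log2 0.91, adjusted p = 0.0433), against 0.73 in edgeR (adjusted p = 0.242).

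Tlr7, the receptor for uridine-rich RNA, had 4.21, 8.07, 4.62 and 6.75 CPM in LiTra libraries, 12.5, 1.58, 7.04 and 6.99 CPM in Li libraries, 9.99, 9.49, 5.07 and 8.03 CPM in Tra libraries and 6.84, 10.3, 8.18 and 13.8 CPM in Co libraries. The LiTra library was the higher one in 1 of 16 pairings with Co. No comparison called Tlr7, and its average ligature fold change was 0.722 (95% interval 0.453 to 1.15, edgeR adjusted p = 0.309). Tlr3, the receptor for long RNA duplexes, ranged from 4.36 to 13.7 CPM in LiTra, 4.18 to 21.6 CPM in Li, 6.85 to 11.9 CPM in Tra and 9.1 to 15.2 CPM in Co. Its average ligature fold change was 1.09 (interval 0.704 to 1.67, adjusted p = 0.811), and it too was called nowhere.

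Tlr9, the receptor for unmethylated CpG DNA, had 4 counts in LiTra 4 and 0 counts in the other 15 libraries, so it had no test. A count of 0 allows a level of up to 3 counts, or 0.0387 to 0.0513 CPM depending on the library, and this limit covers counting error only. Plasmacytoid dendritic cells and B cells are among the cells that can express Tlr9, and not the only ones. The dendritic cell list holds mostly markers of conventional dendritic cells, and its sum came to 46.4 to 105 CPM in LiTra, 63.7 to 120.1 CPM in Li, 48.5 to 71.4 CPM in Tra and 40.5 to 62.3 CPM in Co. Siglech, a plasmacytoid marker on that list, had a log2 fold change over Co of -1.57 ± 0.77 in LiTra (SE, edgeR adjusted p = 0.176), -1.22 ± 0.76 in Li (adjusted p = 0.318) and 0.54 ± 0.74 in Tra (adjusted p = 0.881). Bst2, also a plasmacytoid marker on that list, went the other way in LiTra and Li. Its values were 1.75 ± 0.47 in LiTra (edgeR adjusted p = 0.0255), 1.29 ± 0.46 in Li (adjusted p = 0.0849) and 0.79 ± 0.46 in Tra (adjusted p = 0.764). Summed B cell markers came to 15.5 to 19.9 CPM in LiTra, 17.3 to 23.6 CPM in Li, 14.4 to 22.1 CPM in Tra and 10.8 to 21.4 CPM in Co. Of the B cell markers, Pax5 was at 0 in every Li, Tra and Co library and Ms4a1 in every Li library.

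Myd88, the adaptor, had 96.4, 81.9, 66.2 and 62.6 CPM in LiTra libraries, 69.6, 110.5, 63.8 and 77.3 CPM in Li libraries, 51.3, 82.1, 70 and 145 CPM in Tra libraries and 55.7, 62.7, 52 and 46 CPM in Co libraries. Every Li library lay above every Co library, as did all but 1 of the LiTra libraries and all but 1 of the Tra libraries. None of these differences passed. Over Co, the log2 fold change of Myd88 was 0.51 ± 0.28 in LiTra (SE, edgeR adjusted p = 0.231), 0.57 ± 0.28 in Li (adjusted p = 0.201) and 0.69 ± 0.28 in Tra (unadjusted p = 0.0255, adjusted p = 0.686). The value in Tra over Co was 0.32 to 0.87 when 1 library at a time was left out. The average ligature effect was 0.19 ± 0.20 (adjusted p = 0.513) and the interaction -0.75 ± 0.39 (adjusted p = 1).

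**Figure D2:**
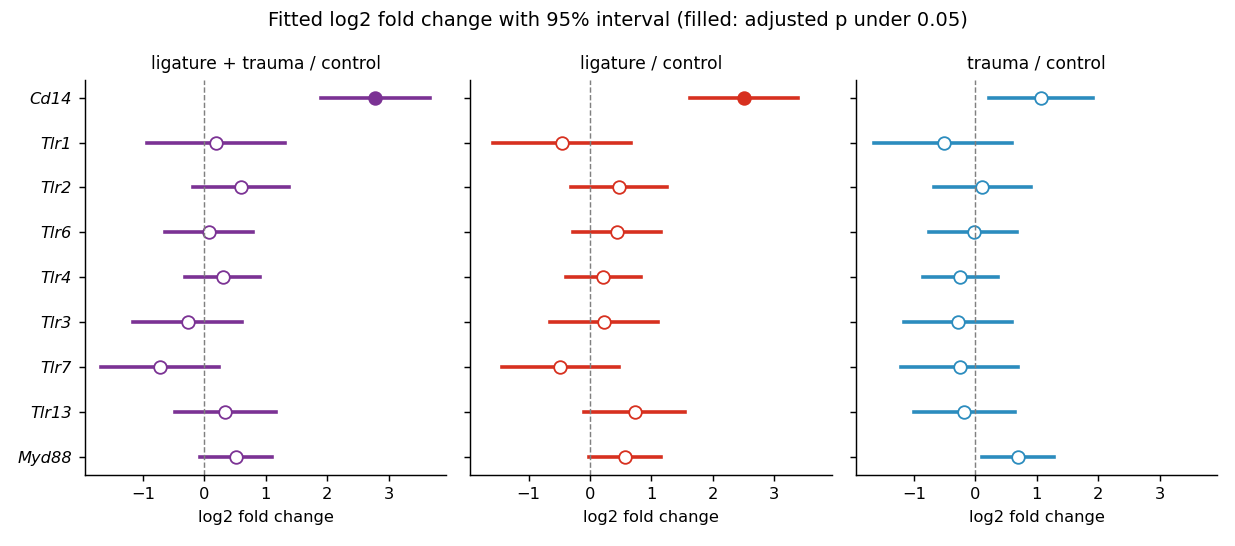
Log2 fold change over Co (horizontal axis) of 9 genes in LiTra, Li and Tra, with edgeR 95% intervals as lines and filled points for an adjusted p under 0.05. Cd14 is filled at 2.78 in LiTra and 2.50 in Li and open at 1.07 in Tra, and every other point is open, between -0.73 and 0.73.

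Counted over the 9 tested genes, 1 was called in LiTra over Co, where 12.5% of all genes were called, and 1 in Li over Co, where 10.7% were. For LiTra over Tra the count was 1, with 5.48% of all genes called, and for the average ligature effect 1, with 21.5% called. In each of these the gene was Cd14. In Tra over Co none was called by edgeR, DESeq2 or limma-voom, beside 0.00477% of all genes in edgeR, and 2 of the 9 had an unadjusted p under 0.05. LiTra over Li called none by any of these tools, beside 0% of all genes in edgeR, and none of the 9 had an unadjusted p under 0.05. The same holds for the interaction, with 0% of all genes called. The average trauma effect called none of the 9 by these tools, beside 0.00477% of all genes, and 1 of the 9, Cd14, had an unadjusted p under 0.05. Groups that did not overlap in the higher direction were found for Cd14 and Myd88 in Li over Co (9.97% of all genes), for Cd14 in LiTra over Co (10.8%) and for Cd14 in LiTra over Tra (5.74%).

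As a group, the 9 genes had a median log2 fold change of 0.30 in LiTra over Co and 0.44 in Li over Co, beside -0.08 and -0.05 over all genes tested. In Tra over Co the median was -0.18, beside 0.01 over all genes. Of the 9, 7 had a positive value in LiTra over Co, 7 in Li over Co and 3 in Tra over Co, beside 46.5%, 47.6% and 50.8% of all genes. The comparisons with Co share the same control libraries.

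Receptors that work together or share a compartment were compared as ratios within a library, which do not depend on how libraries were scaled. Of 7 ratios tested with an exact two-sided permutation test within trauma state, 2 passed after Benjamini-Hochberg adjustment. The smallest p that the 4900 regroupings of all 16 libraries allow is 0.000408. Without Li 2, LiTra 2 and LiTra 3 fewer regroupings exist and the smallest possible p is larger. The p-values of that smaller set therefore cannot be set directly against those of all 16 libraries. Cd14 over Tlr4 was 1.96, 4.04, 4.38 and 1.97 (log2) in LiTra libraries, 2.46, 4.31, 2.47 and 3.06 in Li libraries, 1.65, 2.23, 1.22 and 2.66 in Tra libraries and 1.51, 0.72, 0.28 and 0.21 in Co libraries. The mean was 3.08 with a ligature and 1.31 without, a difference of 1.77 (exact permutation p = 0.00367, adjusted p = 0.0129). Only Tra libraries overlapped with the ligature libraries, and every Co library lay below them. The 3 highest ratios belonged to Li 2, LiTra 2 and LiTra 3, and without these the difference was 1.0 and missed the threshold (exact permutation, adjusted p = 0.0844).

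Tlr13 over Tlr7, both endosomal RNA receptors, was 1.75, 1.11, 1.94 and 2.01 (log2) in LiTra libraries, 1.38, 2.51, 2.11 and 2.01 in Li libraries, 0.64, 0.22, 0.52 and 1.29 in Tra libraries and 0.50, 0.96, 0.50 and 0.47 in Co libraries. The ratio averaged 1.85 with a ligature and 0.64 without, a difference of 1.21 (exact permutation p = 0.000816, adjusted p = 0.00571). Only LiTra 2 and Tra 4 crossed between the ligature and no-ligature libraries. Without Li 2, LiTra 2 and LiTra 3 the difference was 1.22 (exact permutation, adjusted p = 0.0133). Neither gene alone was called in the edgeR fit of all 16 libraries without a covariate. Their coding sequences share no identical run longer than 16 bases.

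**Figure D3:**
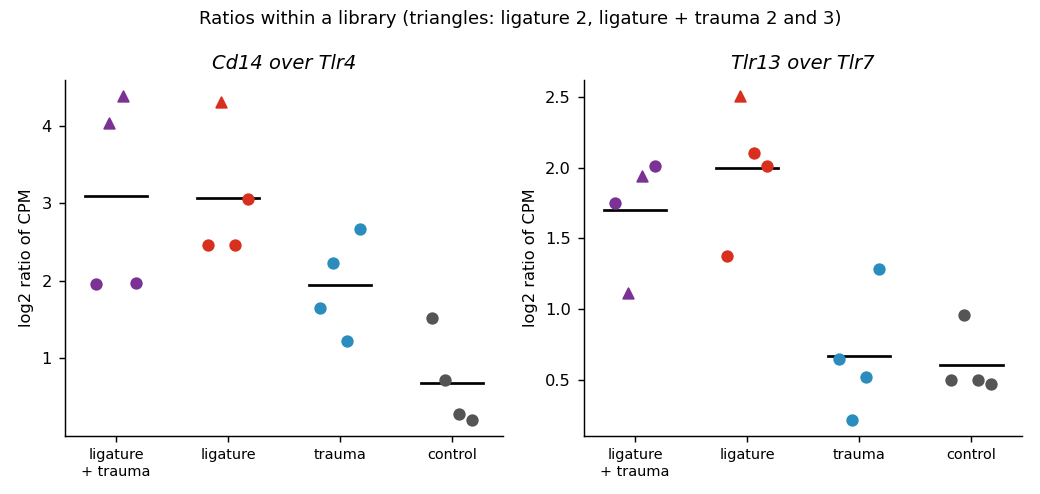
Log2 ratio of CPM (vertical axis) of Cd14 over Tlr4 and of Tlr13 over Tlr7 in each library by group, with lines at group means and triangles for the 3 libraries with the lowest slope on exon length. Cd14 over Tlr4 is highest in these 3 libraries, at 4.04 to 4.38, while for Tlr13 over Tlr7 they lie at 1.11, 1.94 and 2.51, among the other ligature libraries.

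The other 5 ratios did not pass. The difference between libraries with and without a ligature was 0.58 for Tlr3 over Tlr7 (exact permutation, adjusted p = 0.15), -0.39 for Tlr6 over Tlr2 (adjusted p = 0.304), -0.43 for Tlr1 over Tlr2 (adjusted p = 0.527), 0.40 for the Tlr4 partner Ly96 over Tlr4 (adjusted p = 0.527) and -0.05 for Ticam1 over Myd88 (adjusted p = 0.832). The ratio of the adaptors averaged -3.07 with a ligature and -3.02 without.

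Levels between genes were compared as RPKM, which is CPM per kilobase of exon, averaged over all 16 libraries. Cd14 stood first at 105 RPKM, followed by Myd88 at 28.9, Tlr2 at 18, Tlr4 at 5.36, Tlr13 at 4.23, Tlr3 at 2.06, Tlr7 at 1.89, Tlr6 at 1.22, Tlr1 at 0.987 and Tlr9 at 0.0011 RPKM. Cd14 was above Myd88 in 14 of 16 libraries, Myd88 above Tlr2 in 14, Tlr2 above Tlr4 in 16 and Tlr13 above Tlr3 in 15. The order of Tlr3 and Tlr7 was open, with Tlr3 higher in 8 of 16 libraries, as was that of Tlr6 and Tlr1, with Tlr6 higher in 10. Tlr4 was above Tlr13 in 12 and Tlr7 above Tlr6 in 13 libraries. Cd14 also varied most among the 9 tested genes, with a highest library 14.4 times the lowest.

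For each tested gene, genes with the most similar pattern were taken from 11691 genes of sufficient level, by the root mean square difference of gene-centred log2 CPM over the 16 libraries. For Cd14, whose own SD was 1.23, they were H2-Q10 at 0.26, Samsn1 at 0.36 and Fgr at 0.40. H2-Q10 belongs to a family of near-identical class I genes and its counts are uncertain. For Tlr2 (SD 0.59) they were Tap2 at 0.24, Eml2 at 0.31 and Tyk2 at 0.31, and for Tlr4 (SD 0.43) Kctd10 at 0.18 and Rp2 at 0.19. For Tlr13 (SD 0.63) they were Vps18 at 0.31 and Antxr2 at 0.32, and for Myd88 (SD 0.42) Rnps1 at 0.22, Eif4a3 at 0.23 and St3gal1 at 0.25. For Tlr3 (SD 0.60) they were Galnt7 at 0.21, Akap10 at 0.24 and Znfx1 at 0.27, and for Tlr7 (SD 0.71) Zfp820 at 0.29, Slc25a16 at 0.33 and Zfp654 at 0.34. Tlr6 (SD 0.41) was nearest to Tbc1d2b, Otud6b and Arhgap30, each at 0.24, and Tlr1 (SD 0.79) to 6720489N17Rik at 0.48, Abca1 at 0.50 and Stk17b at 0.51. The distances of Tlr1 were the largest of the 9 genes.

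The rest of the pathway was read from 7 lists in the average ligature effect, where 13 genes were called. As a share of all listed genes, this was close to the 21.5% of all genes tested that were called in either direction. Of all genes tested, 10.8% rose and 10.7% fell in that comparison. Of the 4 other toll-like receptors, 1 fell, and none rose. This was Tlr5, the flagellin receptor, at 3.77 ± 2.39 CPM in LiTra, 5.24 ± 2.94 CPM in Li, 13.3 ± 6.68 CPM in Tra and 11.9 ± 2.28 CPM in Co (SD, n = 4 each). Tlr5 changed by -1.50 ± 0.36 (log2, SE, edgeR adjusted p = 0.00836) on the average ligature effect, and by -1.12, with an adjusted p of 0.0598, in the 13 libraries. Tlr5 is known from epithelium, and the epithelial sum given above was also lower with a ligature. Its part in the Tlr5 values was not tested.

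**Figure D4:**
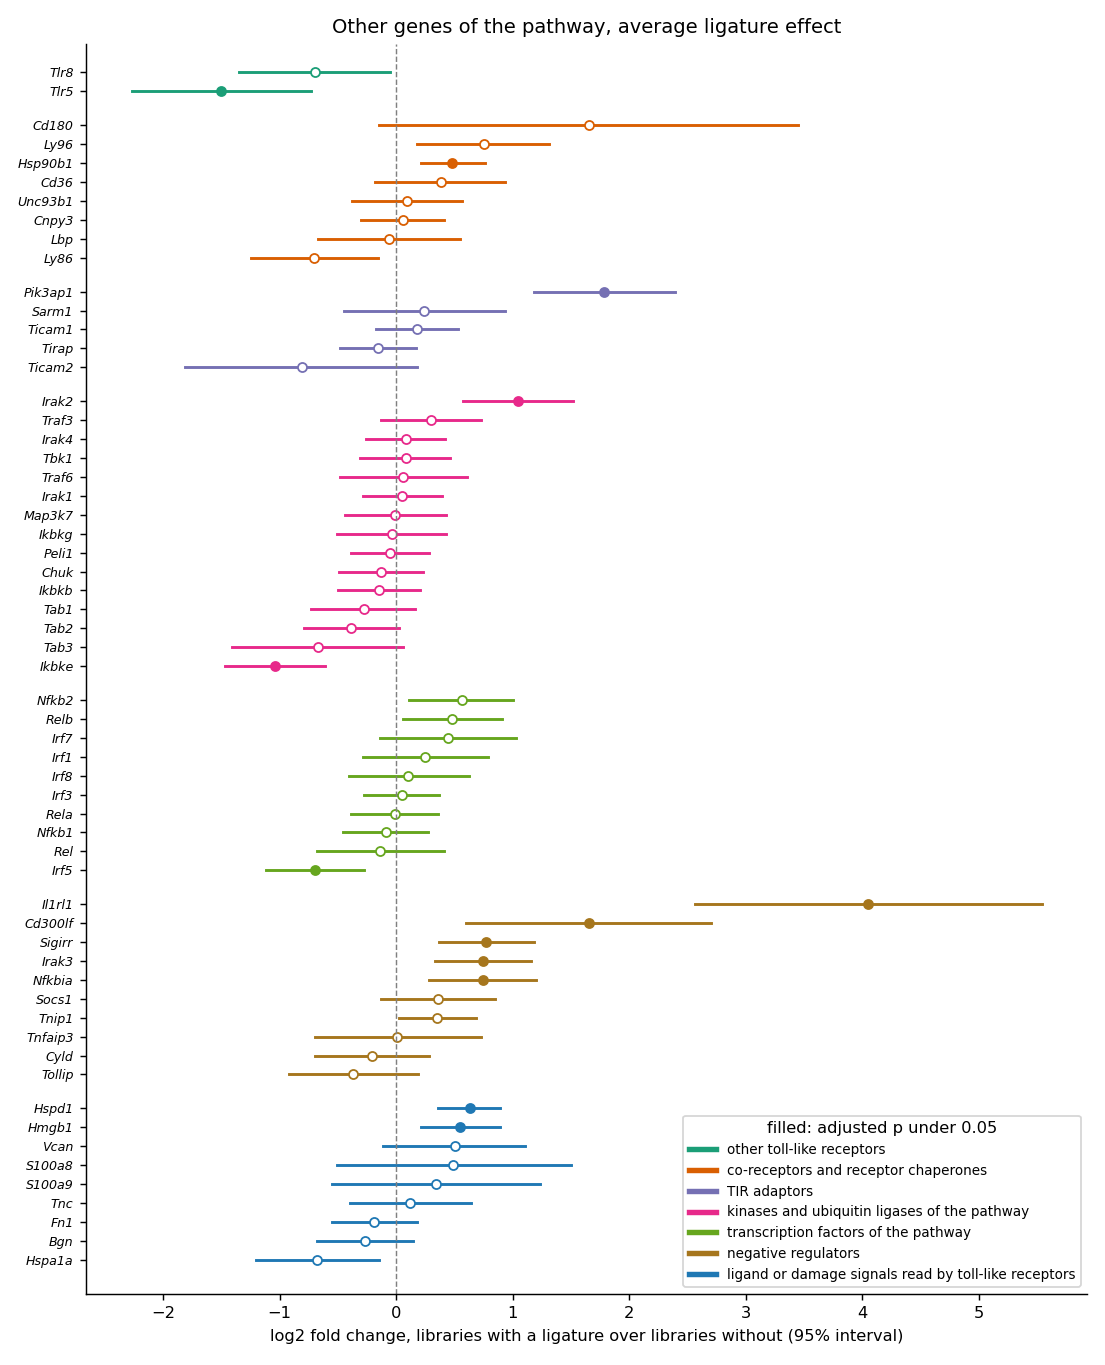
Average ligature effect (log2 fold change, horizontal axis) with edgeR 95% intervals for the genes of 7 pathway lists, coloured by list, with filled points for an adjusted p under 0.05. Il1rl1 lies farthest to the right at 4.05 and Tlr5 farthest to the left at -1.50; Tlr11 and Tlr12, near 0 CPM, are not drawn.

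Of the 8 co-receptors and chaperones, 1 rose on the average ligature effect and none fell. This was Hsp90b1, the endoplasmic reticulum chaperone that toll-like receptors need for folding, at 1155 ± 183 CPM in LiTra, 1244 ± 223 CPM in Li, 837 ± 46.6 CPM in Tra and 879 ± 32.5 CPM in Co (1.40-fold, edgeR adjusted p = 0.0142). Ly96, the partner through which Tlr4 holds lipopolysaccharide, rose in LiTra over Co (log2 1.32 ± 0.38 SE, edgeR adjusted p = 0.0347). It had 27.1 ± 9.78 CPM in LiTra, 19.3 ± 9.95 CPM in Li, 17.1 ± 5.31 CPM in Tra and 10.8 ± 4.36 CPM in Co. That call was lost in 7 of 25 alternative settings, among them the 13 libraries and, one at a time, leaving out LiTra 2, LiTra 3, Co 1, Co 2 or Co 4, with an adjusted p of up to 0.224. With the length covariate the log2 value was 0.50 (adjusted p = 0.204) and in the 13 libraries 0.80.

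Of the 5 other adaptors, 1 rose and none fell. Pik3ap1, a TIR-domain adaptor to phosphoinositide kinase, had 25.6, 22.2, 22.7 and 34.6 CPM in LiTra libraries, 49.6, 12.7, 35.8 and 40.1 CPM in Li libraries, 7.53, 9.54, 3.47 and 11.9 CPM in Tra libraries and 5.56, 11, 11.1 and 10 CPM in Co libraries. No library without a ligature reached the lowest with one. The average ligature fold change of Pik3ap1 was 3.44 (95% interval 2.27 to 5.23, edgeR adjusted p = 0.000453), called in each of 24 alternatives. Among the 4 adaptors that were not called, Ticam1 had 9.09 ± 2.21 CPM in LiTra, 9.48 ± 1.54 CPM in Li, 8.21 ± 1.48 CPM in Tra and 8.16 ± 1.17 CPM in Co.

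Of 15 kinases and ubiquitin ligases, 1 rose and 1 fell. Irak2, a kinase recruited after Myd88, averaged 14.5 ± 3.62 CPM in LiTra, 14.4 ± 5.03 CPM in Li, 8.4 ± 1.44 CPM in Tra and 5.87 ± 2 CPM in Co, 2.06-fold higher with a ligature (edgeR adjusted p = 0.00388). Ikbke, a kinase of interferon regulatory factors, averaged 6.26 ± 1.71 CPM in LiTra, 9.05 ± 2.85 CPM in Li, 15.4 ± 1.44 CPM in Tra and 15.6 ± 4.46 CPM in Co, with a log2 fold change of -1.04 (adjusted p = 0.00198). Of 10 transcription factors, none rose and 1 fell. This was Irf5, which acts after Tlr7 and Tlr9, at 9.26 ± 3.94 CPM in LiTra, 9.04 ± 0.71 CPM in Li, 15 ± 2.72 CPM in Tra and 14.7 ± 2.95 CPM in Co (log2 -0.70, adjusted p = 0.0203).

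The negative regulators held the most calls, with 5 of 10 higher on the average ligature effect and none lower. The median log2 fold change of that list was 0.55, beside -0.05 over all genes. Il1rl1, the receptor of the alarmin Il33 and also a marker of mast cells and some T cells, had 456, 382, 308 and 323 CPM in LiTra libraries, 578, 358, 438 and 436 CPM in Li libraries, 3.56, 148, 8.8 and 5.79 CPM in Tra libraries and 3.94, 31.3, 8.98 and 14.2 CPM in Co libraries. Every library with a ligature had at least 308 CPM, and Tra 2, at 148 CPM, was the highest without. The average ligature effect of Il1rl1 was 16.5-fold (95% interval 5.88 to 46.4, edgeR adjusted p = 0.000859). It was called in each of the 23 alternatives that gave an adjusted p, with a log2 fold change of 3.85 to 5.44, against 4.05 in the fit of all 16 libraries without a covariate. The highest, 5.44, was without Tra 2. DESeq2 gave 4.05 and no adjusted p.

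The other negative regulators called changed less. Irak3, which blocks Irak signalling in macrophages, had a log2 fold change of 0.74 ± 0.20 (SE, edgeR adjusted p = 0.0134), and Sigirr, a TIR-domain inhibitor, 0.77 ± 0.19 (adjusted p = 0.0094). Nfkbia, the inhibitor that holds NF-kappaB in the cytoplasm, had 0.74 ± 0.22 (adjusted p = 0.0228). Cd300lf, an inhibitory receptor of myeloid cells, was the fifth, with 1.65 ± 0.50 (adjusted p = 0.0261). The call was lost in the 13 libraries for Sigirr, Nfkbia and Cd300lf, with adjusted p-values of up to 0.057, 0.181 and 0.129 over the alternatives. Leaving out LiTra 2 ended the calls of Nfkbia and Cd300lf, and leaving out LiTra 3 or adding the length covariate that of Nfkbia. Against Co, 4 of the 10 rose in LiTra (6.83% of all genes did) and 4 in Li (5.88% did), and in Tra over Co no gene of any of the 7 lists was called.

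Of 9 proteins read by toll-like receptors as ligands or damage signals, 2 rose and none fell. Hspd1, a mitochondrial chaperone, averaged 202 ± 40.8 CPM in LiTra, 229.6 ± 29.1 CPM in Li, 147 ± 13.2 CPM in Tra and 133 ± 14.3 CPM in Co (log2 0.63, edgeR adjusted p = 0.00255). Hmgb1, a chromatin protein released by dying cells, averaged 365 ± 51.3 CPM in LiTra, 351 ± 122 CPM in Li, 253 ± 12.1 CPM in Tra and 236 ± 50.8 CPM in Co (0.55, adjusted p = 0.024), and lost its call in the 13 libraries and without LiTra 3 (adjusted p of up to 0.0875). S100a8 and S100a9, neutrophil proteins that bind Tlr4 and belong to the neutrophil list above, rose in LiTra over Co, at 1104 ± 835 and 872 ± 616 CPM in LiTra, against 167 ± 122 and 175 ± 105 CPM in Co. Their means were highest in Tra, at 1472 ± 976 and 1304 ± 750.2 CPM, and were 439.9 ± 204 and 418 ± 135 CPM in Li. In Tra over Co neither was called (log2 3.14 and 2.89, edgeR unadjusted p = 0.000509 and 0.00033, adjusted p = 0.366 for each). Both calls in LiTra over Co were lost in 7 of 25 alternatives, namely the 13 libraries, the length covariate and, one at a time, leaving out LiTra 2, LiTra 3, Co 1, Co 3 or Co 4, with adjusted p-values of up to 0.355 and 0.412. Of the 13 pathway genes called on the average ligature effect, 8 were called in every alternative that gave an adjusted p. In Li over Co 3 of 7 were, and in LiTra over Co none of 12. Of all genes tested, 10.7% were called in Li over Co and 12.5% in LiTra over Co.

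**Figure D5:**
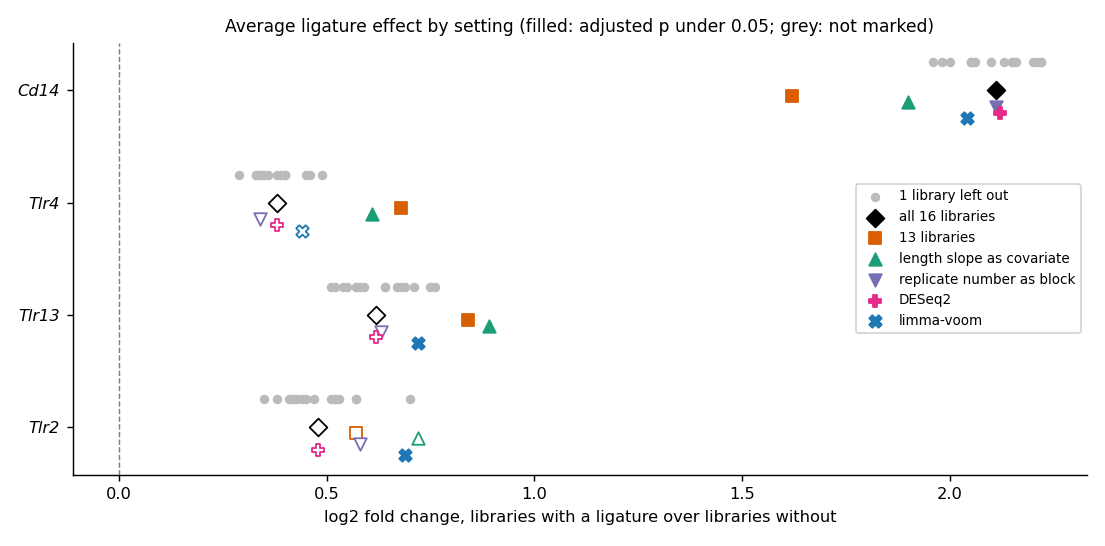
Average ligature effect (log2 fold change, horizontal axis) of Cd14, Tlr4, Tlr13 and Tlr2 under each setting, with filled symbols for an adjusted p under 0.05 and grey points, whose p is not marked, for fits that leave out 1 library. Cd14 lies between 1.62 and 2.22 with every marked symbol filled, while Tlr4 is filled at 0.61 and 0.68, Tlr13 at 0.72, 0.84 and 0.89 and Tlr2 at 0.69, and these are open in the edgeR fit of all 16 libraries without a covariate.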

How the data were processed

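Poly(A) RNA of 16 libraries was sequenced, per the labels' protocols. The authors deposited 1 table of raw read counts for each gene and library, in whole numbers. Per the submitters' processing notes, DESeq2 1.32.0, StringTie 2.1.7, HISAT2 2.2.1, FastQC 0.11.9 and Trimmomatic 0.39 were used with the build GRCm39; their roles are not stated there. Which tool counted the reads, with which annotation and strand setting, is not given in the sources used here, so reads of overlapping and antisense genes cannot be told apart. Symbols and exon lengths came from GENCODE M21, annotated on GRCm38, and matched 52083 identifiers. Rows without a symbol held 0.205% of the counts. No coordinates are given.

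The counts were tested with edgeR 4.0.16 in R 4.3.3 (TMM scaling, expression filter by group with a minimum count of 10, 1 fit of all 4 groups, 12 residual degrees of freedom). Tlr9 failed the filter, so the ratio of Tlr9 to Tlr7, listed as an eighth, could not be fitted. Ratios used log2 CPM with a prior count of 2. RPKM and CPM were computed here. The scripts were tested on simulated data. The genes, lists, ratios and tests were chosen with earlier results of these data known, among them the low length slopes of Li 2, LiTra 2 and LiTra 3. All 10 genes are named, and of each pathway list the genes called, at most 4 with the lowest p. Cd300lf, beyond these 4 in the average ligature effect, was named after its values were seen. Ticam1 and, in LiTra over Co, Ly96, S100a8 and S100a9 are given besides the average ligature effect. For each tested gene the 3 nearest genes with a mean log2 CPM of at least 2 are named, apart from some that are not reported here.

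Alternatives were DESeq2 1.42.0, its size factors in edgeR, no filter, a filter of 50 counts in 4 libraries, a replicate block by library number, a fit of only the groups compared, leaving out 1 library at a time, the length slope as a covariate, 13 libraries, and limma-voom (limma 3.58.1) with sample weights. For ratios they were a prior count of 0.5 and unscaled library sizes, besides the 13 libraries and each library left out. The same alternatives were applied to the pathway genes called, a choice added after seeing the data. Confidence intervals are at 95%. Libraries correlated at 0.767 to 0.92 in log2 CPM, so none was taken for a repeat of another.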

Additional observations from a re-analysis of the deposited data

Results flagged for a closer look

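Of 36 sets of 4 libraries (9 genes in 4 groups), 2 held a library whose gap to the nearest other, divided by the range of the 4 on the log2 CPM scale, was above the critical value of 0.829. Chance alone flags about 1 in 20 such sets. Both were Li 2, the library with the lowest slope on exon length. For Tlr4 it had 15.5 CPM where the other Li libraries had 39.2, 37.4 and 38.7 CPM, a gap of 0.948 of the range. For Tlr13 it had 9.13 CPM where the others had 32.5, 30.4 and 28.2 CPM, a gap of 0.888 of the range. Li 2 was not low for Cd14, at 308 CPM, and was the highest Li library for Myd88, at 110.5 CPM.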

How the results depend on the processing

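Across the fits and ratios of the tested genes, 1796 of 1906 values kept their direction and their side of the threshold, 7 lost a call, 12 gained one, 91 uncalled values changed sign and no called value did. The number of these genes called was 2 instead of 1 in limma-voom for Li over Co and 2 instead of 1 with the length covariate for LiTra over Co. For LiTra over Tra it was 0 in a fit of those groups only, 2 with the length covariate and 0 to 1 when 1 library was left out; in the 13 libraries it was 1, but Tlr4 (log2 0.90, adjusted p = 0.0357) in place of Cd14. For the average ligature effect it was 3 with the length covariate, in the 13 libraries and in limma-voom, and 1 to 3 when 1 library was left out. Of the ratios, 1 passed in the 13 libraries instead of 2. The cause of these changes was not tested. The replicate numbers did not pair the libraries: over 24 pairs with the same number, deviations from group means correlated at -0.157 to 0.215, and 4 of 16 libraries correlated best with their own number. With the replicate number as a block, Cd14 in Li over Co was 2.49 on the log2 scale (adjusted p = 0.00382), and the block changed no call among the 9 genes.

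Over all genes, calls in LiTra over Co numbered 2609, but 1256 with the length covariate, 819 in the 13 libraries and 4263 in DESeq2. In Li over Co they numbered 2234, but 1304 in a fit of those groups only and 3698 in DESeq2. In LiTra over Tra they numbered 1149, but 1959 with the length covariate, 447 in the 13 libraries and 2096 in DESeq2. Where edgeR called 1 gene in Tra over Co, 0 in LiTra over Li, 0 for the interaction and 1 for the average trauma effect, DESeq2 called 114, 31, 51 and 59, and 734 genes in LiTra over Li and 1032 for the interaction had an unadjusted edgeR p under 0.05. Leaving out 1 library gave 1057 to 4426 calls in LiTra over Co, 1470 to 2170 in Li over Co and 584 to 1549 in LiTra over Tra. Among the 10 genes, depth limits the statement on Tlr9 only. It also limits those on listed genes with counts at or near 0, such as Pax5, Ms4a1, Tlr11 and Tlr12.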
